A study of Mus musculus with 4 samples.

Results

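The genes described are 8 of the 57126 counted features: the D-type cyclins Ccnd1, Ccnd2 and Ccnd3, their kinases Cdk4 and Cdk6, and the Cip/Kip inhibitors Cdkn1a, Cdkn1b and Cdkn1c. They were taken by symbol from the feature list, as the machinery that moves a cell through the G1 phase. Cerebral cortex was taken from 4 mice, and each mouse gave 1 single-cell RNA-seq library. The groups are wild type (WT) at E14.5, the mouse labelled TSK-KO at E14.5, WT at P0 and TSK-KO at P0, where E14.5 is an embryonic day and P0 is the day of birth. TSK stands for Tsukushi, and its gene Tsku encodes a secreted proteoglycan, and the series asks how its loss affects the making of neurons and glia. Cells were freed with trypsin and passed to the capture kit without a sort. The labels name no strain, allele or agent. With 1 mouse per group there is no replicate of a genotype or an age, so those comparisons carry counting error only and no test. Contrasts between barcodes of the same library were tested over the 4 mice, with each mouse as its own control.

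A D-type cyclin binds Cdk4 or Cdk6, and the complex phosphorylates the retinoblastoma family of pocket proteins, which frees E2F factors to switch on genes of DNA synthesis. Cdkn1a (p21), Cdkn1b (p27) and Cdkn1c (p57) bind cyclin-kinase complexes and hold cells in G1 or outside the cycle. In the embryonic cortex, radial glia divide along the ventricle and give rise to intermediate progenitors that express Eomes, which in turn give rise to projection neurons. Around birth, glial progenitors of astrocytes and oligodendrocytes expand.

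The promoters of the kinases are shown because Cdk4 and Cdk6 were both higher in cycling barcodes, and they differ in their content of the hexamer CACGTG, the core letters that MYC-family and other basic helix-loop-helix factors can bind. Sequences run 5′ to 3′ on the plus strand, end inside the transcribed part, and come from RefSeq on GRCm38.p6, which is not the build named for the counts. Capitals mark CACGTG, which reads the same on both strands. Cdk4 lies at chr10:127063285-127063584 and Cdk6 at chr5:3343643-3343942.
Cdk4: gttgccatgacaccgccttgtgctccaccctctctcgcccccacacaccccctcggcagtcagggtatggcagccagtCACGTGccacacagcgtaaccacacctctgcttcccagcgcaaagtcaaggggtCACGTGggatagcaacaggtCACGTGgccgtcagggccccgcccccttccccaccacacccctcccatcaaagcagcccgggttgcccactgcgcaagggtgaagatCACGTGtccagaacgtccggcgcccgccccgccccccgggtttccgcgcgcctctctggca
Cdk6: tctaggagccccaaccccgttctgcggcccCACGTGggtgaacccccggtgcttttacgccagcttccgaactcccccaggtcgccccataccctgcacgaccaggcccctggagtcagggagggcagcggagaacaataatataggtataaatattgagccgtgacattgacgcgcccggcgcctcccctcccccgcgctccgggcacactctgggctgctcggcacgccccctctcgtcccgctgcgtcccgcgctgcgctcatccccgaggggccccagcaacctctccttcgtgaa
The Cdk4 window holds 4 copies and the Cdk6 window 1. Among 32851 promoters of the same length, 7.15% hold at least 1 copy. Promoters were found for 5 of the 8 genes, 7 in all, and those of Ccnd3, Cdkn1a and Cdkn1b hold 0 copies. Ccnd3 was also higher in the cycling gate over all barcodes, so the promoters shown are not those of every gene that rose. The letters TTTCCCGC or TTTGGCGC, searched on both strands as forms of an E2F site, occur in none of the 7 and in 1.56% of all promoters. A match is a description of letters and not of binding.

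The libraries held 620, 4107, 1047 and 1436 barcodes after filtering, in the order E14.5 wild type, labelled E14.5 knockout, P0 wild type and P0 knockout, which is kept below. Total counts were 5606381, 14404051, 6042033 and 8894856, and median counts per barcode ranged from 2829 in the labelled E14.5 knockout to 7345.5 in E14.5 wild type. Library pairs shared at most 2 barcodes. Levels are given as CPM (counts-per-million), each gene's counts scaled to the total of the library or gated class. Tsku had 54, 74, 42 and 0 counts, so the P0 knockout matches its label (0 counts allow up to 0.337 CPM) and the labelled E14.5 knockout goes against its own. Xist and Ddx3y, which mark female and male cells, had 3, 6707, 0 and 1 and 496, 1, 666 and 1183 counts. The E14.5 mice thus differ in sex as well as label and depth, and at E14.5 these cannot be told apart. Barcodes were called cycling when the summed counts of Mki67, Top2a and Cenpf, genes of S, G2 and M phase, reached 3. This gave 114, 830, 145 and 226 barcodes, or 18.4%, 20.2%, 13.8% and 15.7%. A sum of exactly 3 was held by 8, 61, 6 and 17 barcodes and a sum of exactly 2 by 11, 99, 23 and 43. Barcodes outside the gate include cells in G1 and cells that have left the cycle.

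Classes are gates on raw marker counts and not clusters. The radial-glia gate (Sox2, Pax6, Hes5 and Slc1a3, which at P0 also takes in astroglia) held 57, 493, 137 and 226 barcodes. The Eomes gate held 76, 456, 99 and 134, the projection-neuron gate (with Neurod2, Neurod6 and Tbr1 among its markers) 246, 1392, 411 and 453, and the inhibitory gate (Dlx and Gad genes) 136, 860, 178 and 146. The oligodendrocyte-progenitor (OPC) gate (Pdgfra, Cspg4, Sox10, Olig1) held 7, 18, 126 and 263, so it is described mainly at P0. Gates shared markers in some classes. In Eomes-gated barcodes the projection-neuron genes summed to between 951 and 1854 CPM and the radial-glia genes to between 519 and 1116 CPM. Radial-glia genes also summed to between 787 and 1140 CPM in the inhibitory gate and reached 3951 and 3394 CPM in the OPC gate at P0. The part of these markers in the results on those gates was not tested. In radial-glia-gated barcodes the other 4 lists each stayed below 100 CPM. Ccnd3 has a processed pseudogene, Ccnd3-ps, in the feature list, and how reads shared by both were counted is not known.

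Across whole libraries, Cdkn1c was the gene with the clearest difference between ages. It stood at 239.5 and 245 CPM in the E14.5 libraries and at 67.9 and 57.9 CPM in the P0 libraries. Both P0 libraries were below both E14.5 libraries, with log2 ratios of P0 over E14.5 of -1.82 (95% interval -1.98 to -1.66) in wild type and -2.08 (-2.22 to -1.95) under the knockout label. Cdk6 went the other way, with 102 and 80.5 CPM at E14.5 and 206 and 242 CPM at P0. Its log2 ratios were 1.02 (0.87 to 1.16) and 1.59 (1.48 to 1.69). Cdkn1a stood at 21.4, 32.1, 46.0 and 56.3 CPM, with log2 ratios of 1.10 and 0.81. In wild type 3 of the 8 genes were at least 2-fold apart between ages and under the knockout label 2 of 8, where 11.2% and 19.1% of all measured genes were. After every barcode was thinned to 1500 counts, only Cdkn1c was at least 2-fold apart in wild type, since Cdk6 then stood at 0.72 and Cdkn1a at 0.83. In bulk sums, fewer cells of a type and less RNA per cell cannot be told apart.

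The remaining genes differed less between whole libraries. Ccnd2 stood at 942, 918, 1679 and 1325 CPM and was higher in both P0 libraries. Ccnd1 stood at 189, 134, 208 and 264 CPM, and the ranges of the ages do not overlap. Ccnd3 stood at 37.3, 28.5, 38.4 and 41.3 CPM. Cdk4 had 549.7, 653, 509 and 552 CPM and Cdkn1b 294, 305, 412 and 335 CPM. Between genotype labels, 0 of 8 genes were 2-fold apart at either age, where 6.51% of genes were at E14.5 and 4.77% at P0.

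**Figure D1:**
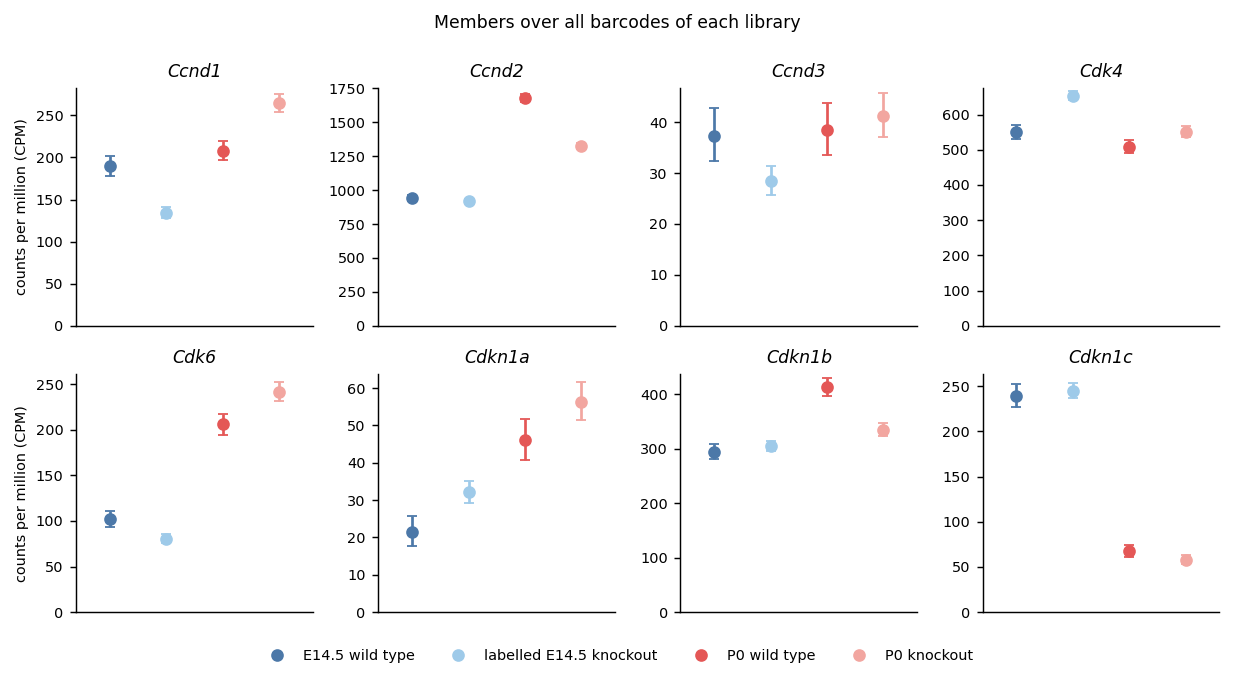
CPM of the 8 genes over all analysed barcodes of each library, with exact Poisson 95% intervals that cover counting error only. Cdkn1c lies at 239.5 and 245 in the E14.5 libraries and at 67.9 and 57.9 in the P0 libraries, and Cdk6 is higher in both P0 libraries.

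Over all barcodes, all D-type cyclins and both kinases rose in the cycling gate, and 0 of 3 inhibitors were called. The question is which of these genes follow the cell cycle and which mark classes that happen to cycle. Ccnd2 had 2426, 2142, 4401 and 2751 CPM in cycling barcodes and 487, 537, 1019 and 940.4 outside the gate, and every cycling value exceeded every value outside it. Its log2 fold change was 2.02 (SE 0.12). Ccnd1 rose by 1.71 (SE 0.32, edgeR adjusted p = 0.0058) and Cdk6 by 1.55 (SE 0.24, adjusted p = 0.0023), and both were higher in 4 of 4 libraries. The Ccnd1 log2 ratios by library were 2.63, 2.00, 1.82 and 0.29, so the rise was small in P0 knockout (309 against 252 CPM). Ccnd3 rose by 0.77 (adjusted p = 0.0047) and Cdk4 by 0.58 (adjusted p = 0.0020), also in 4 of 4. Ccnd3 lost its call after thinning to 1500 counts (0.55, adjusted p = 0.16). Cdkn1b was at 0.21 (adjusted p = 0.088), Cdkn1a at 0.15 and Cdkn1c at -0.36. After thinning, Cdkn1b (0.40, adjusted p = 0.024) and Cdkn1c (-0.98, adjusted p = 0.013) were called. Of 13156 genes 18.8% were called up and 18.9% down, so 5 of 8 up and 0 of 8 down stand beside a large background. The median log2 fold change was 0.67 for the 8 genes and 0.01 for all genes.

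Within radial-glia-gated barcodes Cdk4 rose and Cdkn1a fell in the cycling gate, and 0 of 3 cyclins were called. Cdk4 had 689, 765, 496 and 681 CPM in cycling barcodes and 552, 649, 295 and 356 outside, higher in 4 of 4 libraries. Its log2 fold change was 0.56 (SE 0.15, edgeR adjusted p = 0.029). The call was lost with DESeq2 (adjusted p = 0.051), after thinning (0.30) and without P0 wild type (0.13) or P0 knockout (0.16). Cdkn1a, the p53-responsive inhibitor, had 1, 6, 0 and 7 counts in cycling barcodes and 14, 33, 17 and 34 outside, lower in 4 of 4 libraries. Its log2 fold change was -2.58 (SE 0.55, adjusted p = 0.0064), and with gate thresholds of 5 it was -0.49 (adjusted p = 0.64). Without the block the adjusted p was 0.063, and after thinning Cdkn1a was below the filter on low counts and not tested. Cdk6 was higher in 4 of 4 libraries at 0.63 but missed the threshold (adjusted p = 0.059). Ccnd1 was at 0.20, Ccnd2 at 0.27, Ccnd3 at -0.34 and Cdkn1b at 0.30, none of them called. Cdkn1c stood at -1.35 (adjusted p = 0.15) and was called without P0 knockout (-2.08, adjusted p = 0.014). A p that misses the threshold does not show equal levels. Of 7522 genes 6.54% were called up and 3.72% down, beside 1 of 8 in each direction.

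Within Eomes-gated barcodes, Ccnd1, Ccnd2 and Cdk6 rose in the cycling gate and Cdkn1c fell. The test used 3 libraries, since P0 wild type had 9 cycling barcodes. Ccnd1 had 208, 294 and 99.4 CPM in cycling barcodes of E14.5 wild type, labelled E14.5 knockout and P0 knockout, and 78.1, 96.5 and 68.8 outside. All 3 cycling values lay above all 3 values outside, but in E14.5 wild type 27 of the 70 Eomes-gated counts lay in 1 barcode. The part of that barcode in the separation was not tested. The log2 fold change of Ccnd1 was 1.33 (SE 0.23, edgeR adjusted p = 0.0015). Ccnd2 rose by 0.65 (SE 0.15, adjusted p = 0.011) and Cdk6 by 0.98 (SE 0.19, adjusted p = 0.0033). Cdkn1c had 28.9, 179 and 12.4 CPM in cycling barcodes and 248, 512 and 34.4 outside, lower in 3 of 3 libraries. The cycling sums held 15, 85 and 29 barcodes, so the low cycling values rest on few counts. Of 113 Eomes-gated Cdkn1c counts in E14.5 wild type, 29 lay in 1 barcode, and of 23 in P0 knockout, 8 did. The log2 fold change of Cdkn1c was -1.75 (SE 0.26, adjusted p = 0.0005). Cdk4 at 0.24 and Cdkn1b at -0.02 were not called, and Ccnd3 and Cdkn1a did not pass the filter on low counts. Ccnd1 lost its call without the labelled E14.5 knockout (adjusted p = 0.062) and Ccnd2 without E14.5 wild type (0.089). Of 6824 genes 8.50% were called up and 3.82% down, beside 3 and 1 of the 6 genes tested.

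**Figure D2:**
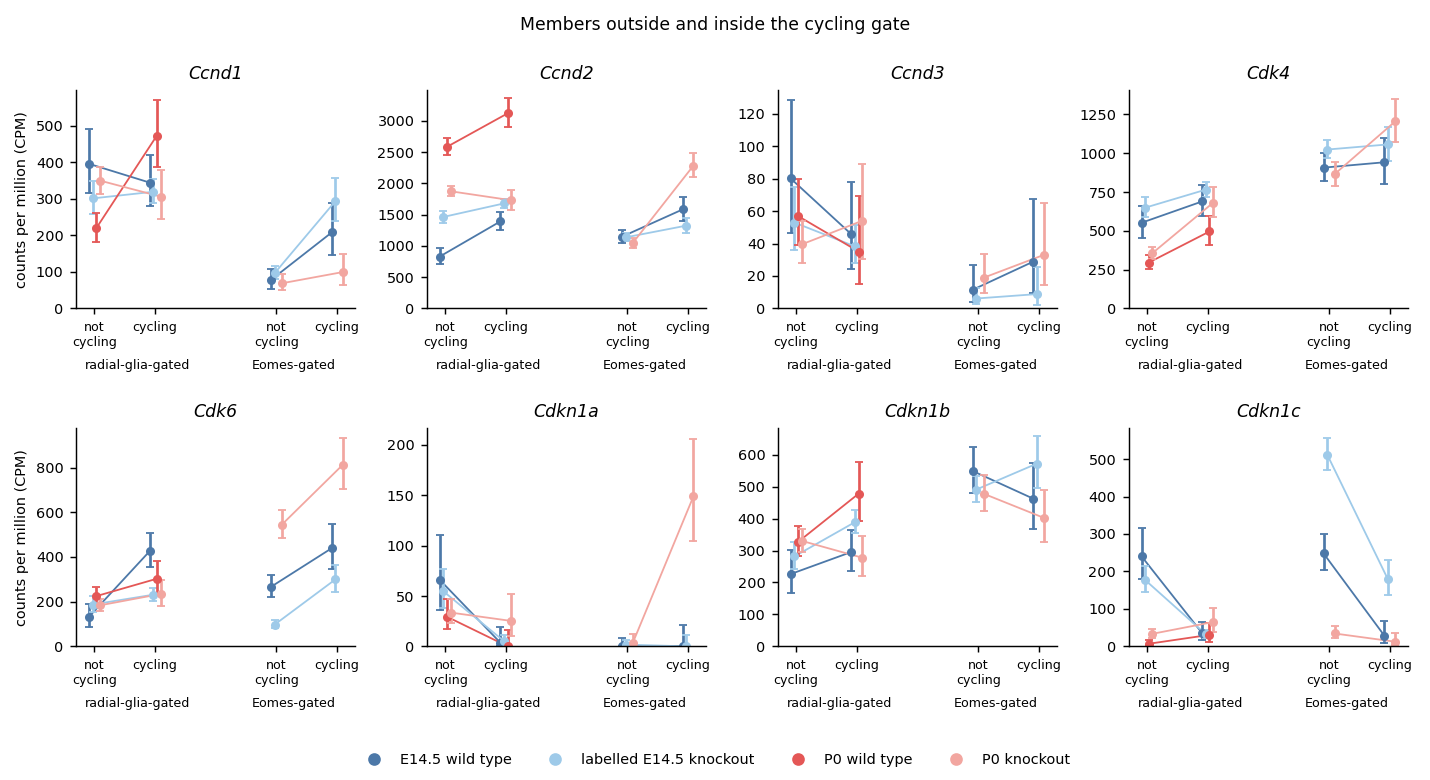
CPM outside and inside the cycling gate, for radial-glia-gated barcodes (left pair) and Eomes-gated barcodes (right pair), with a line per library and exact Poisson 95% intervals. Cdk4 goes up in all 4 radial-glia-gated libraries, Cdkn1c goes down in all 3 Eomes-gated libraries, and the high Cdkn1a value of cycling Eomes-gated barcodes at P0 comes mostly from 1 barcode.

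The inhibitory gate held the highest Ccnd2. Its cycling barcodes had 5426, 4974, 8688 and 8060 CPM, against 1393, 1680, 3123 and 1730 in cycling radial-glia-gated barcodes of the same libraries. Inside that gate, cycling over not cycling gave log2 ratios of 2.24, 2.43, 1.91 and 1.09 for Ccnd2. Cdkn1b was also higher in cycling inhibitory-gated barcodes of all 4 libraries, with log2 ratios of 0.81, 0.81, 1.22 and 0.63 and intervals above 0. These ratios within a library carry counting error only.

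The cycling gate rests on genes of late phases, so barcodes outside it were split by 8 S-phase genes (Pcna, Mcm2, Mcm3, Mcm5, Mcm6, Rrm2, Gins2, Tyms), with at least 3 counts summed. Among radial-glia-gated barcodes outside the cycling gate, 16, 105, 28 and 42 met this and 9, 91, 78 and 136 did not. Ccnd2 was higher in those with S-phase counts in all 4 libraries, with log2 ratios of 2.40 (1.55 to 3.38), 0.91 (0.70 to 1.13), 0.63 (0.48 to 0.78) and 0.49 (0.35 to 0.63). Ccnd1 was at 0.21 (-0.52 to 1.00), 0.56 (0.10 to 1.03), 1.29 (0.77 to 1.82) and 1.13 (0.82 to 1.44), so 3 of 4 intervals lay above 0. Cdkn1c was lower in both E14.5 libraries, at -1.09 (-1.94 to -0.23) and -1.11 (-1.71 to -0.53). In the Eomes gate the split was less even. Ccnd2 was at -0.05 (-0.34 to 0.23), 0.49, 1.30 and 1.29, with 13 barcodes on the S-phase side in E14.5 WT, and Cdk6 was at -1.25 (-2.06 to -0.51), 0.74, 0.25 and -0.19. In the inhibitory gate Ccnd2 was at 2.39, 3.06, 2.87 and 1.49, with all 4 intervals above 0. These are ratios within single libraries, and deeper barcodes meet a count gate more easily.

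From the radial-glia gate to the Eomes gate, 2 cyclins fell and Cdk4 and Cdkn1b rose. Cycling barcodes numbered 32, 297, 31 and 48 of the 57, 493, 137 and 226 radial-glia-gated ones. In the Eomes gate they numbered 15, 85, 9 and 29 of 76, 456, 99 and 134. The gates thus also differed in cycling share, most clearly at E14.5. Ccnd1 had 367, 313, 291 and 341 CPM in radial-glia-gated barcodes and 115, 141, 33.5 and 77.8 in Eomes-gated ones, with no overlap. In E14.5 WT, 27 of the 70 Eomes-gated counts lay in 1 barcode. Its log2 fold change was -1.91 (SE 0.28, edgeR adjusted p = 0.0011). Ccnd3 fell by 1.74 (SE 0.30, adjusted p = 0.0028), from 60.4, 43.2, 50.8 and 42.6 CPM to 16.4, 6.71, 16.7 and 23.1. The Eomes-gated sums totalled 608495, 1491205, 537521 and 823151 counts, so these low values rest on few Ccnd3 counts. Cdk4 rose by 0.82 (SE 0.14, adjusted p = 0.0026), from 631, 726, 352 and 426 CPM to 917, 1031, 757 and 965. Cdkn1b rose by 0.69 (SE 0.14, adjusted p = 0.0050), from 266, 353, 369 and 319 CPM to 524, 509.7, 655 and 456. Each was in the same direction in 4 of 4 libraries. Cdkn1c was higher in 3 of 4 libraries at 1.29 and was not called (adjusted p = 0.067), and it passed with gate thresholds of 2 (1.503, adjusted p = 0.0066) and without P0 knockout (1.79, adjusted p = 0.0056). Ccnd2 at -0.48 and Cdk6 at 0.58 were not called, but Ccnd2 was without E14.5 wild type (-0.70, adjusted p = 0.046) and Cdk6 without the labelled E14.5 knockout (0.98, adjusted p = 0.015). Cdkn1a stood at -1.504 (adjusted p = 0.16), with 34 of the 38 counts of Eomes-gated P0 knockout in 1 barcode, and without P0 knockout it was called (-3.51, adjusted p = 0.0040). Outside the cycling gate, an alternative chosen after seeing the data, Cdkn1a stood at -4.79 (adjusted p = 0.0003). The barcode with 34 counts is a cycling one and does not enter that fit. Over both states, Eomes-gated Cdkn1a was at 0, 1.34 and 5.58 CPM in E14.5 wild type, labelled E14.5 knockout and P0 wild type. The value of -4.79 thus rests on very few Eomes-gated counts. Of 9241 genes 13.0% were called up and 13.9% down, beside 2 of 8 in each direction.

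From the Eomes gate to the projection-neuron gate, 5 of the 7 genes tested fell and 0 rose. Cycling barcodes numbered 15, 85, 9 and 29 of the 76, 456, 99 and 134 Eomes-gated ones. In the projection-neuron gate they numbered 0, 27, 2 and 4 of 246, 1392, 411 and 453. The contrast thus mixes class with cycling share. Ccnd2 went from 1270.3, 1179, 1215 and 1410.4 CPM to 138, 187, 81.1 and 128, a log2 fold change of -3.21 (SE 0.18), or 9.27-fold lower. Cdk6 fell by 3.05 (SE 0.29), Ccnd1 fell by 2.91 (SE 0.24) and Cdk4 fell by 0.83 (SE 0.08), each in 4 of 4 libraries. Cdkn1b fell by 0.46 (SE 0.13, edgeR adjusted p = 0.021), and the call was lost without E14.5 wild type (0.11) or the labelled E14.5 knockout (0.11). Ccnd3 at -0.25 and Cdkn1c at -0.27 were not called, and Cdkn1a did not pass the filter. Cdkn1c split by age, with 142 and 177 CPM in projection-neuron-gated barcodes at E14.5 and 79.3 and 63.7 at P0. Of 10618 genes 16.7% were called up and 16.1% down.

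Ccnd1 was highest in the OPC gate. OPC-gated barcodes had 741 and 672 CPM at P0, against 291 and 341 in radial-glia-gated barcodes and 7.29 and 14.9 in projection-neuron-gated ones. Ccnd1 had a count in 78.6% and 77.9% of OPC-gated barcodes and in 2.68% and 5.96% of projection-neuron-gated ones, which serve as the background, at median depths of 5923.5, 6090, 4554 and 4799 counts. Inside the OPC gate, cycling and non-cycling barcodes had 836 and 667 CPM in wild type and 544.5 and 744 in the knockout, so the order differed between the P0 mice. Ccnd3 was also high there, at 78.7 and 76.1 CPM, against 50.8 and 42.6 in the radial-glia gate.

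**Figure D3:**
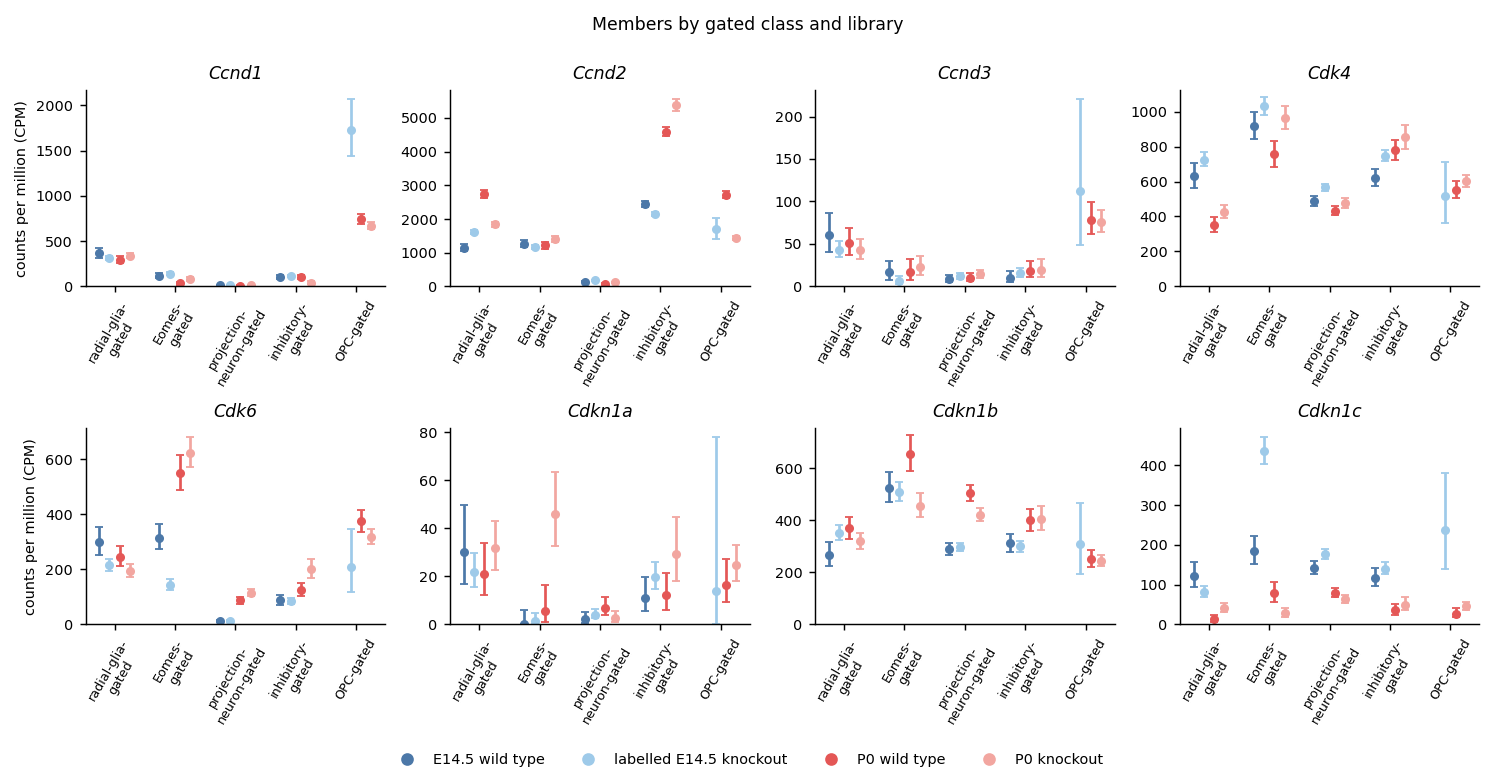
CPM by gated class and library, with exact Poisson 95% intervals; the OPC gate of E14.5 wild type, with 7 barcodes, is not drawn. Ccnd2 is highest in the inhibitory gate, Ccnd1 in the OPC gate and Cdk4 in the Eomes gate in 3 of 4 libraries, and Cdk6 in Eomes-gated barcodes is higher at P0 than at E14.5.

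Between ages, the direction of several genes was shared by gated classes. Cdkn1c was lower at P0 in the radial-glia, Eomes, projection-neuron and inhibitory gates under both genotype labels. Its log2 ratios ran from -3.17 in radial glia to -0.84 in projection neurons in WT, and from -3.96 in the Eomes gate to -1.02 in radial glia under the knockout label. Cdk6 was higher at P0 in the projection-neuron gate, by 2.89 (2.30 to 3.54) in WT and 3.12 (2.73 to 3.53) under the knockout label, and in the Eomes gate by 0.80 and 2.12. In the radial-glia gate it was at -0.28 and -0.15, with both intervals holding 0. Cdk4 was lower at P0 in the radial-glia gate, at -0.84 and -0.77. Ccnd2 was higher at P0 in the inhibitory gate, at 0.91 and 1.32, and lower in the projection-neuron gate, at -0.77 and -0.54. These are single mice, with no replicate check.

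Whether these contrasts differ with age was tested as an interaction over 2 libraries per age, an analysis added after seeing the data. Genotype labels were pooled within an age. For cycling over not cycling over all barcodes, 1 of 8 genes was called where 0.684% of genes were. That gene was Cdk6, whose log2 ratios were 2.17 and 2.19 at E14.5 and 0.97 and 0.83 at P0, a difference of -1.18 (SE 0.14, edgeR adjusted p = 0.021). The call was lost without P0 wild type (adjusted p = 0.056) or P0 knockout (0.11). In radial-glia-gated barcodes 0.359% of genes were called, and Cdkn1c was among them. Outside the cycling gate Cdkn1c had 240.5 and 177 CPM at E14.5 and 6.91 and 33.5 at P0, and inside it 35.2, 32.3, 30.7 and 64.9. The order thus differed between ages, and the difference was 3.73 (SE 0.52, adjusted p = 0.011). At P0 these values rest on 7 and 4 counts in wild type and 18 and 34 in the knockout. In E14.5 wild type, 22 of 61 radial-glia-gated Cdkn1c counts lay in 1 barcode.

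For Eomes-gated over radial-glia-gated barcodes, 7.26% of genes differed with age, and 3 of the 8 did. Cdk6 had log2 ratios of 0.07 and -0.59 at E14.5 and 1.15 and 1.68 at P0, a difference of 1.60 (SE 0.24, edgeR adjusted p = 0.0006) that stayed called with each library left out in turn. Ccnd1 had ratios of -1.67, -1.15, -3.12 and -2.13 and a difference of -1.24 (adjusted p = 0.015), which was lost without the labelled E14.5 knockout (-0.89, 0.22), after thinning (-0.83, 0.46) and with gate thresholds of 2 (-0.68, 0.24). Cdkn1a differed by 4.35 (adjusted p = 0.0097), which rests on the single barcode named above and was lost without P0 knockout (adjusted p = 0.40). For projection-neuron-gated over Eomes-gated barcodes, 2.34% of genes differed. Cdk6 was called at 1.42 (adjusted p = 0.020), with 11.8 and 13.3 CPM in projection-neuron-gated barcodes at E14.5 and 87.5 and 116 at P0. It was lost without E14.5 wild type (0.89, adjusted p = 0.26) and after thinning (0.42, 0.79). Cdkn1c was called at 1.47 (adjusted p = 0.047), and the call was lost without E14.5 wild type (0.080), the labelled E14.5 knockout (0.92, adjusted p = 0.39) or P0 knockout (0.073).

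Between genotype labels the values are a comparison of 1 mouse with 1 mouse. At P0, Ccnd2 was lower in the knockout in both glial gates. OPC-gated barcodes had 2715 CPM in wild type and 1438 in the knockout, a log2 ratio of -0.92 (-0.996 to -0.838), and it was -0.81 inside and -0.92 outside the cycling gate. Radial-glia-gated barcodes had 2738 and 1843 CPM, a log2 ratio of -0.57 (-0.66 to -0.49). Ccnd2 was higher in the knockout in the Eomes gate (0.22), the projection-neuron gate (0.66) and the inhibitory gate (0.23). The sign depended on state there: it was -0.23 in Eomes-gated barcodes outside the cycling gate and -0.11 in cycling inhibitory-gated ones. Ccnd1 in cycling inhibitory-gated barcodes had 79 counts in wild type and 7 in the knockout, or 242 and 26.1 CPM, a log2 ratio of -3.21 (-4.57 to -2.10). Of the 98 counts in the whole inhibitory gate of P0 wild type, 25 lay in 1 barcode. Cdk4 was higher in the knockout in the radial-glia gate (0.28, 0.07 to 0.49) and in the Eomes gate (0.35, 0.18 to 0.53), and Cdkn1b was lower in the Eomes gate (-0.52, -0.74 to -0.31). The P0 Eomes gates also differed in other markers: radial-glia genes summed to 640.0 CPM in wild type and 1116 in the knockout, and projection-neuron genes to 1641 and 951 CPM. The part of these markers in the Eomes-gated ratios at P0 was not tested.

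At E14.5, where Tsku goes against the label, the Eomes gate held the largest ratios. Cdk6 had 316 CPM in wild type and 144 in the library labelled knockout, a log2 ratio of -1.14 (-1.42 to -0.85). Cdkn1c had 186 and 436 CPM, a log2 ratio of 1.23 (0.94 to 1.53). Of the 113 WT counts of Cdkn1c, 29 lay in 1 barcode, and without the top barcode of each library the ratio was 1.60 (1.27 to 1.95). At P0 the same ratios were 0.18 (-0.03 to 0.39) for Cdk6 and -1.48 (-2.28 to -0.72) for Cdkn1c.

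**Figure D4:**
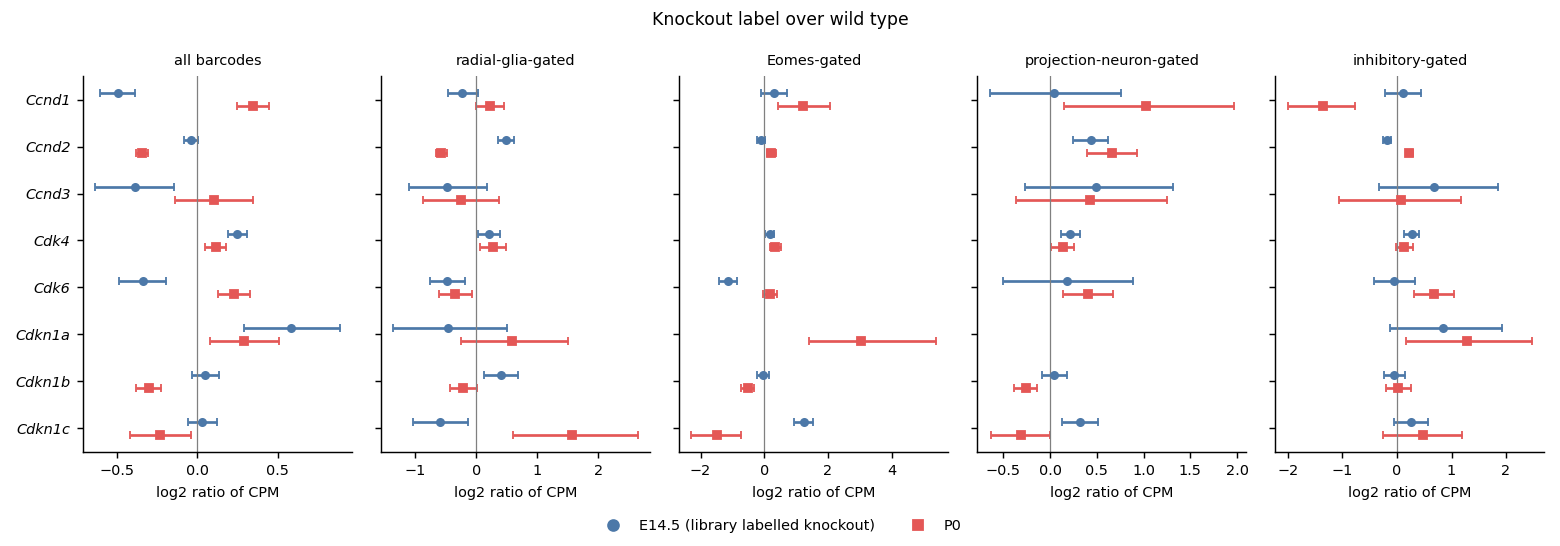
Log2 ratio of knockout label over wild type at E14.5 (circles) and P0 (squares), by gated class, for genes with at least 30 counts, with 95% intervals that cover counting error only; each panel has its own horizontal scale. Ccnd2 in radial-glia-gated barcodes lies at 0.48 at E14.5 and -0.57 at P0, and Cdkn1c in Eomes-gated barcodes at 1.23 and -1.48.

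The partners of these genes in the same pathway mostly rose with the cycling gate. Among 10 G1/S cyclins, kinases and activators, 8 rose over all barcodes, 4 in the radial-glia gate and 6 in the Eomes gate, and 0 fell, where 18.8%, 6.54% and 8.50% of all genes rose. Their median log2 fold changes were 2.12, 1.00 and 1.62. Ccna2, the cyclin of S and G2 phase, had the largest change in each (6.20, 4.91 and 6.11), followed over all barcodes by Ccne1 (3.17), and in the other 2 by Cks1b (2.16) and Ccne1 (3.16). Ccne2 and Cdk2, the E-type cyclin and its kinase, rose over all barcodes (3.00 and 2.27), and in the radial-glia gate Ccne2 rose by 1.67 while Cdk2 stood at 0.76 (edgeR adjusted p = 0.066). Of the 4 INK4 inhibitors, which bind Cdk4 and Cdk6 directly, Cdkn2c and Cdkn2d could be tested, and both rose in all 3 contrasts. Cdkn2c rose by 4.45, 2.67 and 3.73, the opposite direction to Cdkn1c in the Eomes gate.

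Of 13 pocket protein, E2F and DP genes, 11 rose over all barcodes, with E2f8 (5.64) and E2f7 (3.53) first. Rbl1 rose by 3.10 and E2f1 by 2.01, while Rb1 stood at 0.05 (edgeR adjusted p = 0.82). Of 11 genes of the p53 list, 1 rose and 2 fell over all barcodes, which is near or below the 18.8% and 18.9% of all genes. Trp53 rose by 0.48, and Bbc3 fell by 1.23 and Trp53inp1 fell by 1.10. In the radial-glia gate 0 of 7 tested p53-list genes were called, where 6.54% of all genes rose and 3.72% fell. A count of 0 of 7 is near those shares. From the Eomes gate to the projection-neuron gate, 8 of 10 G1/S genes and 8 of 13 pocket and E2F genes fell and 0 rose, where 16.1% of all genes fell. Ccna2 fell by 4.35, Cdk2 fell by 3.56, E2f8 fell by 4.22, E2f2 fell by 2.75 and Cdkn2c fell by 4.29. On the p53 list 3 of 8 genes fell, led by Trp53inp1 (-0.75) and Trp53 (-0.72). Bbc3, which encodes a pro-apoptotic protein, rose by 1.28 there. Between the radial-glia and Eomes gates 1 of 10 G1/S genes and 1 of 13 pocket and E2F genes rose and 1 and 2 fell, and 1 of 2 INK4 genes fell, beside 13.0% up and 13.9% down of all genes. Cdc25a (0.72) and E2f1 (0.73) rose, and Cdk2 (-0.91), Cdkn2c (-1.02), Rbl1 (-1.37) and E2f5 (-1.499) fell. On the p53 list Trp53inp1 rose by 2.06, Trp53 by 0.65 and Mdm2 by 0.50, and Ccng1 fell by 1.06.

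The genes most like each member were ranked by Pearson's r of log2(CPM + 1) over 28 sums of library, class and cycling state, among 8941 candidates. The sums share libraries and depth, so r is a description. Ccnd1 was closest to Jam2 (0.93), Limd1 (0.91) and Slc25a5 (0.91), and Ccnd2 to Efhd2 (0.89), Cdca7 (0.89) and Sall1 (0.88). Ccnd3 was closest to Zfp36l2 (0.91), Fabp7 (0.91) and Polg (0.91), Fabp7 being a radial-glia marker. Cdk4 was closest to Nmral1 (0.88), Sinhcaf (0.87) and Ctbp1 (0.84), and Cdk6 to Mtbp (0.86), Mrfap1 (0.85) and Zeb1 (0.85). Cdkn1a had the lowest values, with Car2 (0.71), Gclc (0.71) and Wwp1 (0.65). Cdkn1b was closest to Insm1 (0.79), a gene of intermediate progenitors, Ankrd6 (0.79) and Pou3f2 (0.78), and Cdkn1c to Kdm1a (0.82), Dcc (0.82) and Zmym2 (0.81). Among the 8 themselves, Ccnd1 and Ccnd3 had the highest r (0.79) and Ccnd3 and Cdkn1c the lowest (-0.64).

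Counts of Ccnd1 and Ccnd2 in the same barcode are given after thinning to 1500 counts, as shares that depend on how often each gene is counted. Both had a count in 45.2% (36.4 to 54.3) of 126 OPC-gated barcodes of P0 wild type and in 33.5% (27.8 to 39.5) of 263 of the knockout. In those barcodes Ccnd1 had a count in 55.6% and 54.0% and Ccnd2 in 81.0% and 57.8%. In the radial-glia gate both were seen in 17.5%, 21.4%, 21.2% and 26.1%, and Ccnd2 alone in 56.1%, 54.1%, 62.8% and 52.7%. In cycling inhibitory-gated barcodes both were seen in 17.6%, 16.7%, 10.0% and 4.65%, and Ccnd2 alone in 79.4%, 73.8%, 90.0% and 90.7%. Cycling radial-glia-gated barcodes, the like set, had both in 18.8%, 22.7%, 32.3% and 25.0%. In the whole inhibitory gate both were seen in 5.15%, 6.56%, 4.49% and 4.11%. A missing count at this depth does not show that the gene is absent.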

How the data were processed

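The authors deposited counts, whole numbers per gene and cell barcode without scaling, for 4 libraries made with the Asteria kit, per the labels. The submitters' processing notes name GRCm39, FastQC 0.12.1, Seurat 5 and R 4.3.2 without a role. The aligner, annotation, barcode filter and collapsing of reads to molecules were not given in the sources used here, so intervals and floors cover counting error only.

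A barcode entered with 500 counts or more, 300 genes or more and no more than 10% of its counts from mitochondrial genes. Scrublet called 2, 0, 3 and 6 doublets, under 0.5% of each library, where its expected rate was set to 5%. Whether it missed doublets was not tested. None were removed, so any doublets remain. Gates needed at least 3 marker counts (Eomes at least 2), and not every gate excluded every other class. The radial-glia and projection-neuron gates excluded the other classes at their thresholds, and a list at least 2 times the other decided between these gates. The Eomes gate did not exclude radial-glia or projection-neuron counts. The inhibitory and OPC gates did not exclude radial-glia counts, and the larger list decided between them. The inhibitory gate allowed projection-neuron counts where its own list was at least 2 times larger. Gate thresholds were set after seeing the data. The marker list of the projection-neuron gate is not reported here in full. Raw counts were summed per library, class and state (at least 15 barcodes) and tested with edgeR 4.0.16 (quasi-likelihood, library as a block) in R 4.3.3, with Benjamini-Hochberg adjustment over all genes tested at 0.05. The samples are paired because both sums of a pair come from the same mouse. On simulated counts for the radial-glia contrast, 101 of 200 genes changed 2-fold were recovered (50.5%), with 5 false calls. The changed genes were drawn from those with higher CPM, with a fixed dispersion and the same fold in every mouse. The share recovered therefore does not cover low genes such as Cdkn1a. Ratios between libraries used genes with at least 30 counts and conditional binomial 95% intervals. CPM intervals are exact Poisson and shares exact binomial (Clopper-Pearson).

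The text names the 8 members, in each pathway list the 2 genes with the largest change in each direction among those called, 7 further genes of the pathway, and the nearest genes by likeness. The members and lists were chosen with earlier results of these data known. Alternatives were DESeq2 1.42.0, its size factors, no low-count filter, no block, thinning, gates of 2 and 5, removal of the top 5% of doublet scores each library left out and, for ratios between libraries, the barcode with the most counts of a gene left out.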

Additional observations from a re-analysis of the deposited data

Results flagged for a closer look

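Several members had knockout-label ratios of opposite sign at the 2 ages, with both counting intervals clear of 0 when every barcode is used. With 1 mouse per group this difference between ages was not tested. Over all barcodes the log2 ratios at E14.5 and P0 were -0.49 and 0.35 for Ccnd1 and -0.34 and 0.23 for Cdk6. In radial-glia-gated barcodes they were 0.48 and -0.57 for Ccnd2 and -0.59 and 1.56 for Cdkn1c. Of the 61 E14.5 WT counts of Cdkn1c there, 22 lay in 1 barcode. Without the top barcode of each library, an alternative chosen after seeing the data, the E14.5 ratio was -0.10 (-0.62 to 0.46), so its sign rests on that barcode. In Eomes-gated barcodes Cdkn1c had 1.23 and -1.48, and in inhibitory-gated barcodes Ccnd2 had -0.18 and 0.23. At P0 the OPC gate held 678 of 1256 Ccnd1 counts in wild type and 1253 of 2350 in the knockout. It held 126 of 1047 and 263 of 1436 barcodes. Without the top barcodes, the P0 Ccnd1 ratio inside it was -0.10 (-0.24 to 0.04). It was 0.27, 1.49, 1.44 and -1.38 in the radial-glia, Eomes, projection-neuron and inhibitory gates. The part of class shares in the ratio over all barcodes was not tested. The E14.5 sign is between 2 embryos of different sex, of which the one labelled knockout holds Tsku counts.

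Cdk6, Cdkn1c, Ccnd1 and Cdkn1a had contrasts that differed between P0 and E14.5 by the edgeR interaction test over 2 libraries per age. For cycling over not cycling the difference was -1.18 for Cdk6 over all barcodes and 3.73 for Cdkn1c in the radial-glia gate. For Eomes-gated over radial-glia-gated barcodes it was -1.24 for Ccnd1, 1.60 for Cdk6 and 4.35 for Cdkn1a. The Cdkn1a value rests on 1 barcode with 34 of 38 counts and was lost without P0 knockout (adjusted p = 0.40). The Ccnd1 value was lost without the labelled E14.5 knockout, after thinning and with gate thresholds of 2, while Cdk6 stayed called with each library left out. For projection-neuron-gated over Eomes-gated barcodes it was 1.42 for Cdk6 and 1.47 for Cdkn1c. The calls of Cdk6 over all barcodes and of both genes in the last contrast were lost when 1 of certain libraries was left out.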

How the results depend on the processing

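No member called in the main fit or in an alternative reversed its direction, and no whole-library ratio with an interval clear of 0 did. Among members called in neither fit, the sign changed in 2 alternative results over all barcodes and 4 in the radial-glia gate. It changed in 4 in the Eomes gate and 2 for projection-neuron-gated over Eomes-gated. Without the replicate block, in which each mouse is its own control, the genes called fell to 3048 over all barcodes (from 4956), 256 in the radial-glia gate (from 772), 408 in the Eomes gate (from 841) and 2143 for projection-neuron-gated over Eomes-gated (from 3487). Members called then numbered 0 of the 2 in the radial-glia gate and 1 of the 4 in the Eomes gate. Thinning to 1500 counts gave 2878, 416, 1046 (Eomes-gated over radial-glia-gated, from 2483) and 1455 genes, 0 members in the radial-glia gate, and 1 member 2-fold apart between WT ages instead of 3. That thinned radial-glia fit lacks E14.5 WT, and no thinned fit was possible for cycling within the Eomes gate. DESeq2 called 504 genes and 1 member in the radial-glia gate and 433 genes in the Eomes gate. With no filter on low counts, 1167 genes and 4 members were called in the radial-glia gate, and 3892 genes and 8 members for Eomes-gated over radial-glia-gated. Gate thresholds of 2 gave 1 radial-glia member and 1280 genes in the Eomes gate, and thresholds of 5 gave 1 radial-glia member. Leaving out 1 library gave 1 to 2 members in the radial-glia gate and 470 to 627 genes in the Eomes gate. The cause of these changes was not tested. Radial-glia-gated cycling rests on as few as 25 barcodes on 1 side of the gate, which limits low genes such as Cdkn1a and Cdkn1c most.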
